A study of Mus musculus with 3 samples.

Results

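The genes described here are 9 members of the Notch signalling pathway, picked by name from the 19927 gene symbols of 3 single-cell RNA sequencing libraries of mouse skin: the receptors *Notch1*, *Notch2* and *Notch3*, the ligands *Jag1*, *Jag2* and *Dll1*, the DNA-binding partner *Rbpj* and the target genes *Hes1* and *Hey1*. All 9 were found, 8 of them in every library, while control 1 did not list *Hey1*. Control 1 and control 2 were labelled *Vdr* flox/flox, and the remaining library was labelled *Vdr* flox/flox; Krt14cre (*Vdr* cKO), so all 3 carry the floxed *Vdr* allele. In the cKO the *Krt14* promoter drives Cre in basal keratinocytes and their descendants. Each library pooled dorsal skin of 3 male mice at P18, freed with trypsin and captured in droplets on the Nadia instrument, so the animals of a library cannot be separated. The study asked how loss of the vitamin D receptor in the epithelium alters the regression of the hair follicle.

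Notch signalling works between cells in contact. A Jagged or Delta ligand on 1 cell pulls on a Notch receptor of its neighbour, ADAM proteases and then gamma-secretase cut the receptor, and the freed intracellular domain joins RBPJ and Mastermind proteins in the nucleus to switch on *Hes* and *Hey* repressors. In the epidermis the pathway is known for promoting the step from *Krt14*-positive basal cells to *Krt10*-positive spinous cells, and in the hair follicle for maintaining the identity of the differentiating layers.

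A barcode was taken as a cell if it held 200 or more detected genes and no more than 20% mitochondrial counts, which gave 1480, 1658 and 2622 cells with 18802408 to 30954897 counts for a library. Values are given for control 1 first, control 2 second and the library labelled *Vdr* cKO last, as CPM, which are counts pooled over all cells and scaled to the same total of 1000000 in each library. *Vdr* itself had 40.7, 35.9 and 80.8 CPM. The targeted gene was thus not lower in the library with the cKO label, and counts of a gene do not tell transcripts with the deleted exon from those without it, so this library is called the library labelled *Vdr* cKO. Intervals are at 95%, by the exact Poisson method for CPM and by Clopper-Pearson for shares. Counting error is all they cover, so they are too narrow where copies of a molecule were counted. With 1 such library there was no test, and the gap between the 2 controls is the only measure of spread. Some barcodes occurred in more than 1 library, 27, 28 and 20 of them among the cells, and leaving them out kept the number of members from 50 CPM over 2-fold above both controls at 1.

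The cells were labelled epidermis cells, and *Krt10* had a count in 99.4% to 99.9% of them. *Krt14* had a count in 40.3% and 39.6% of control cells but in 76.6% of those in the library labelled *Vdr* cKO. Markers of several other cells moved with this library as well. All 5 basal markers lay above both controls there (summed level 909, 668 and 3021 CPM), as did 6 of 6 bulge markers (3018, 2154 and 7950 CPM), 4 of 4 companion layer markers (641, 801 and 2294 CPM), 4 of 4 upper follicle markers (308, 298 and 890 CPM), 6 of 6 cycling genes (95, 56.3 and 237 CPM) and 6 of 6 inner root sheath markers (0.585, 2.54 and 235 CPM). Of the inner root sheath markers, *Krt25*, *Krt27*, *Krt28*, *Krt71* and *Krt73* were at 0 in at least 1 library, as were *Krt6b* of the companion layer, *Mlana* and *Tyr* of melanocytes and *Cd3d* of T cells. Of the spinous markers 4 of 5 (52232, 63592 and 40184 CPM), and of the granular markers 6 of 7 (8672, 7513 and 4873 CPM), lay below both controls. All 5 melanocyte markers (4.10, 3.56 and 39.6 CPM) and 6 of 6 T cell markers (34.5, 17.5 and 72.6 CPM) were also above both controls. So were 5 of 5 markers of antigen-presenting cells (168, 242 and 326 CPM) and 9 of 10 hair shaft or matrix markers (35.3, 14.7 and 102 CPM). Of the hair shaft or matrix markers, *Krt31*, *Krt33a*, *Krt33b*, *Krt34*, *Krt35*, *Krt81*, *Krt83*, *Krt85* and *Krt86* were at 0 or not listed in at least 1 library. Below both controls were 3 of 4 erythroid genes (104, 463 and 62.5 CPM) and 3 of 5 sebaceous markers, although the summed sebaceous level lay between the controls (3350, 1573 and 1728 CPM). Fibroblast, endothelial and smooth muscle or pericyte markers summed to under 10 CPM in every library. In pooled counts, fewer cells of a type and less RNA in each cell cannot be told apart.

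The receptors are large single-pass proteins that act both as the sensor and, once cut, as the signal. *Notch1* (chromosome 2, 26457903 to 26516663, minus strand, GRCm38) is the main receptor of suprabasal epidermis. Its level was 50.2 CPM in control 1 (interval 47.1 to 53.5), 61.4 CPM in control 2 (58.6 to 64.4) and 102 CPM (98.7 to 106) for the library labelled *Vdr* cKO. The third library thus lay above both controls, with a log2 fold of 0.86 relative to the mean of both controls (1 CPM added to each value) against a log2 gap of 0.29 between the controls, but not over 2-fold above both. *Notch2* (chromosome 3, 98013527 to 98150361), a second receptor of the epidermis, had 24.3, 31.1 and 28.4 CPM, so the third library lay between the controls. *Notch3* (chromosome 17, 32120820 to 32166852) had 17.7, 20.2 and 23.6 CPM, a log2 fold of 0.30. Their loci overlap other annotated genes, of which *0610009E02Rik*, opposite *Notch1*, had the most counts on the other strand, at 2.77, 1.39 and 1.65 CPM. Whether the counting used strand is not given in the sources used here.

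The ligands differed from each other. *Jag1* (chromosome 2, 137081456 to 137116644), which marks several follicle compartments and binds all these receptors, had 23.1 CPM (21.0 to 25.4), 29.1 CPM (27.1 to 31.1) and 34.4 CPM (32.4 to 36.6). The log2 fold of 0.39 was about as large as the log2 gap of 0.32 between the controls. *Jag2* (chromosome 12, 112907819 to 112929776), a second Jagged ligand, had 3.24 CPM (2.48 to 4.17), 5.09 CPM (4.30 to 5.98) and 29.0 CPM (27.1 to 30.9). *Dll1* (chromosome 17, 15367354 to 15376872), a Delta ligand known from basal interfollicular epidermis, had 3.88 CPM (3.04 to 4.88), 2.27 CPM (1.75 to 2.89) and 15.4 CPM (14 to 16.8). Both therefore stood far above both controls, *Jag2* at a log2 fold of 2.54 and *Dll1* at 2.01, with log2 gaps of 0.52 and 0.58 between the controls.

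These ligand levels rested on few cells in the controls. *Jag2* had 61, 146 and 897 counts in 11, 12 and 181 cells, and *Dll1* 73, 65 and 476 counts in 9, 7 and 91 cells. A single cell held 29.5% and 37.0% of the *Jag2* counts and 39.7% and 36.9% of the *Dll1* counts of the controls, against 5.69% and 9.87% in the library labelled *Vdr* cKO. When each gene was counted once in a cell, which removes both the weight of single cells and repeated molecules, *Jag2* had 13.4, 8.87 and 69.1 and *Dll1* 10.9, 5.17 and 34.7 detections on the CPM scale, log2 folds of 2.53 and 1.98.

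As both ligands stood higher in the same library, RefSeq promoter windows (GRCm38.p6, from 250 bases before to 50 after a start site) were searched on both strands for TGGGAA, the core that RBPJ binds, and for CACGNG, a site of the HES and HEY repressors that Notch induces. Windows were found for 7 of the 9 members, and not for *Hes1* and *Hey1*. TGGGAA was in 25.6% of all 32851 windows, and among the members in those of *Rbpj* alone. CACGNG was in 27.5% of all windows, and in those of *Jag1*, *Jag2*, *Dll1*, *Notch2* and *Notch3*. *Jag1*, *Notch2* and *Notch3* were not over 2-fold above both controls. The windows of the members held 55.7% to 86% G and C. The background was not matched for this, so no excess is read from these matches. RefSeq gives 2 windows for *Dll1*, and the one nearest the annotated start of the gene was used. The 250 bases before this *Dll1* start are shown because *Dll1* was among the ligands that stood apart. They lie at chr17:15376933-15377182 on the minus strand and read 5′ to 3′, with the CACGNG match in capitals, starting 68 bases before the start site. TGGGAA had no match in these bases, and a match of letters is not a bound site.

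Dll1 upstream: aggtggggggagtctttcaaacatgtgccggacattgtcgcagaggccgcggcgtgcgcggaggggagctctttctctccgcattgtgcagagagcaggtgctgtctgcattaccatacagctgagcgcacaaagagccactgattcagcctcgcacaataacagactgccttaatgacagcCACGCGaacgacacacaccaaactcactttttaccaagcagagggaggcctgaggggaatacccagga

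*Rbpj* (chromosome 5, 53466152 to 53657362), which encodes the factor that all receptors signal through, had 23.6, 21.5 and 28.4 CPM, a log2 fold of 0.32. A pseudogene copy, *Rbpj-ps3*, had only 15, 7 and 13 counts. *Hes1* (chromosome 16, 30064384 to 30067796), a repressor that Notch switches on, had 65.2 CPM (61.6 to 68.9), 86.3 CPM (83.0 to 89.8) and 220 CPM (215 to 225). It thus stood 2.88-fold above the control mean, a log2 fold of 1.53, with a log2 gap of 0.40 between the controls. Counted once in a cell, *Hes1* had 158, 152 and 327 detections on the CPM scale, a log2 fold of 1.07. *Hey1* (chromosome 3, 8663359 to 8667256), a related repressor, was barely detected, with 0, 7 and 8 counts, each from a single cell in the last libraries. With a floor of 3 counts, the 0 in control 1 allows up to 0.160 CPM, and no fold is given.

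**Figure D1:**
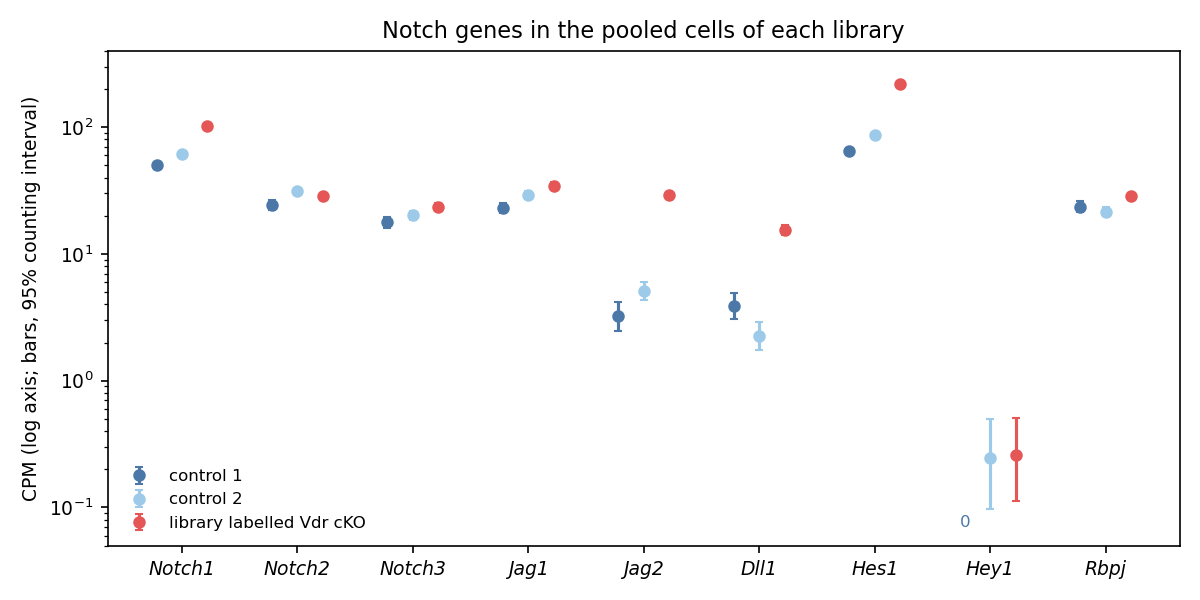
Level of each of the 9 Notch genes in the pooled cells of control 1 (dark blue), control 2 (light blue) and the library labelled *Vdr* cKO (red), in CPM on a log axis, with bars for the 95% counting interval and a 0 where a library had no count. *Jag2*, *Dll1* and *Hes1* stand apart in red (29.0, 15.4 and 220 CPM), while *Notch2* lies between the controls.

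Only *Notch1* and *Hes1* reached 50 CPM in a library, and of these *Hes1* was over 2-fold above both controls, where 3.88% of all 3919 genes at this level were above and 1.15% below. These were 152 genes above and 45 below, against 107 and 86 with TMM factors and 100 and 96 with median-of-ratios factors, and *Hes1* was over 2-fold above both controls under each scaling. Without control 2, *Notch1* was also over 2-fold above the remaining control. At a level of 10 CPM, 8 members were compared, *Jag2*, *Dll1* and *Hes1* were over 2-fold above both controls and 0 were below, against 7.97% above and 1.44% below among all 8806 genes. By any amount, 7 of the 8 lay above both controls, against 44.8% of all genes, with *Notch2* between the controls. *Jag2* and *Dll1* reached 10 CPM in no other library than the one labelled *Vdr* cKO, so the limit itself partly fixed their place, and these counts are a description from which nothing is read against the background. Basal, bulge and other follicle markers were higher in the same library, and their part in these differences was not tested.

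The share of cells with a count was compared after each cell had been thinned to 1000 counts, which left out 14, 61 and 60 shallower cells. *Hes1* had a count in 3.34% (interval 2.48 to 4.39), 3.38% (2.55 to 4.39) and 12% (10.7 to 13.3) of these cells. *Notch1* had a count in 2.05% (1.38 to 2.91), 3.13% (2.33 to 4.11) and 7.92% (6.91 to 9.04). *Jag2* was found in 0.273%, 0.501% and 2.58% and *Dll1* in 0.409%, 0.0626% and 1.29%. For these 4 genes the interval of the third library lay apart from those of both controls, with 1 exception. *Dll1* and control 1 met at 0.889% and 0.888%. The share of all genes with intervals apart in this way was not computed, so nothing particular to these 4 is read from it. Unthinned, *Hes1* was found in 8.78%, 12.4% and 32.6% of cells and *Notch1* in 5.95%, 10.5% and 20.9%.

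Shares of the other members were close together. *Notch2* was found in 2.11%, 1.69% and 1.83% of thinned cells, *Notch3* in 1.57%, 1.38% and 1.95%, *Jag1* in 1.30%, 1.82% and 2.07% and *Rbpj* in 1.09%, 1.57% and 1.83%. All these intervals overlapped. In all, 7 of 8 members at 10 CPM had a share above both controls, but so did 68.7% of all 8806 genes, and a cell in the library labelled *Vdr* cKO held more genes for the same counts (a median of 165 genes for each 1000 counts, against 91.9 and 118). With 200 detected genes drawn from every cell, *Hes1* was found in 2.70%, 2.35% and 6.10%, *Notch1* in 2.09%, 2.11% and 4.31% and *Jag2* in 0.270%, 0.422% and 1.30%, still above both controls. Under this setting *Rbpj* lay between the controls at 0.676%, 1.15% and 0.839%, and *Notch3* below both at 1.69%, 1.75% and 1.60%.

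**Figure D2:**
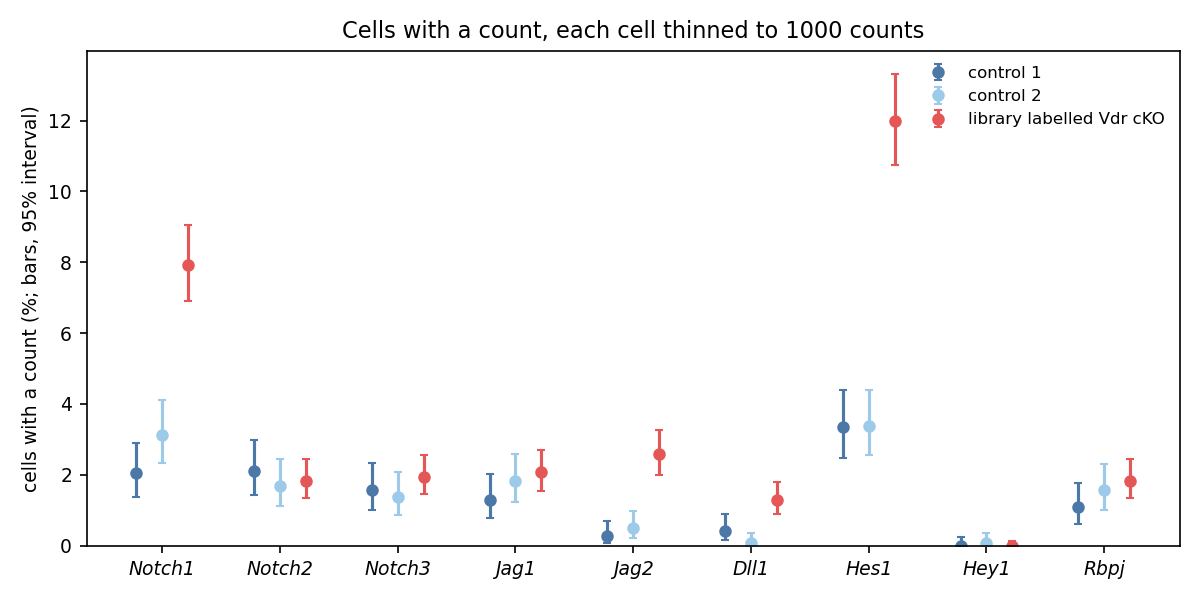
Percent of cells with at least 1 count of each gene after thinning every cell to 1000 counts, in the 3 libraries, with 95% Clopper-Pearson intervals. *Hes1* (12%) and *Notch1* (7.92%) stand out in the library labelled *Vdr* cKO, and the intervals of *Notch2*, *Notch3*, *Jag1* and *Rbpj* overlap across libraries.

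Free RNA can give counts in cells that do not express a gene. Barcodes left out as cells (1308, 802 and 160) had 59.6, 189 and 63.5 CPM of *Hes1*, from 68, 104 and 8 counts. Control 2 thus had more in these barcodes than in its cells. The library labelled *Vdr* cKO had less, but from only 8 counts. For *Notch1* the same barcodes had 51.7, 58.0 and 143 CPM. For *Jag2* they held 0, 19 and 2 counts, and for *Dll1* 0, 0 and 13. Among cells, those with the most *Lor*, the envelope protein loricrin of the granular layer, had a thinned *Hes1* share of 3.83%, 2.98% and 10.5%, at a median of 3745, 3303 and 3746.5 counts. The cells with the least *Lor* had 2.92%, 5.22% and 15.3%, at a median of 5517, 13127 and 7068 counts. No cell type known to lack these genes was set apart for comparison. In the library labelled *Vdr* cKO, 41 cells held at least 2 T cell markers. They had 25.9 CPM of *Jag2* against 29.1 CPM in the rest, from 34 counts. For *Dll1* they had 17.5 against 15.3 CPM, from 23 counts. These T cell barcodes were deeper than the rest, with a median of 11794 against 4007 counts. The left-out barcodes failed a limit for cells and were not shown to be empty. Neither set measures free RNA alone. Its part in small shares such as those of *Jag2* and *Dll1* was not tested in any library.

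Of the other genes of the pathway, 58 were in the files, listed by role from ligand processing to targets. At 50 CPM 20 of them were compared and 0 were over 2-fold from both controls in either direction, while 9 lay above both by any amount and 5 below both. At 10 CPM 43 were compared, of which 3 were over 2-fold above and 0 below, 18 lay above both by any amount and 9 below both, with a median log2 fold of 0.12. The 3 were *Dlk2*, a non-canonical ligand (2.34, 2.44 and 11.5 CPM), *Neurl1b*, a ubiquitin ligase that acts on ligands (0, 1.81 and 12.5 CPM), and *Tle1*, a Groucho co-repressor (7.23, 9.93 and 22.5 CPM). Each of the 3 was under 10 CPM in both controls and was compared only through the library in which it stood higher. From 10 CPM, 7.97% of all genes were over 2-fold above and 44.8% above both by any amount. The counts above both controls from 10 CPM are near this background. From 50 CPM, 3.88% of all genes were over 2-fold above and 1.15% below. For all genes, the share below both by any amount was not computed, nor that above both by any amount from 50 CPM. None of these counts is a result about the pathway.

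The genes named here for cutting the receptors were not over 2-fold above both controls. The ADAM protease gene *Adam10* had 39.0, 80.0 and 67.2 CPM and *Adam17* 42.7, 53.4 and 47.8 CPM. *Ncstn*, which encodes nicastrin, a part of gamma-secretase, had 18.3, 18.3 and 37.3 CPM, a log2 fold of 0.99. Of the further targets, *Nrarp*, a feedback inhibitor of Notch, had 136, 112 and 196 CPM, a log2 fold of 0.66, above both controls but under 2-fold. *Myc* had 37.5, 29.8 and 65.0 CPM, and *Cdkn1a*, which encodes p21, 2300, 2053 and 1485 CPM. *Heyl* had no count in either control and reached 1.16 CPM with the *Vdr* cKO label.

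**Figure D3:**
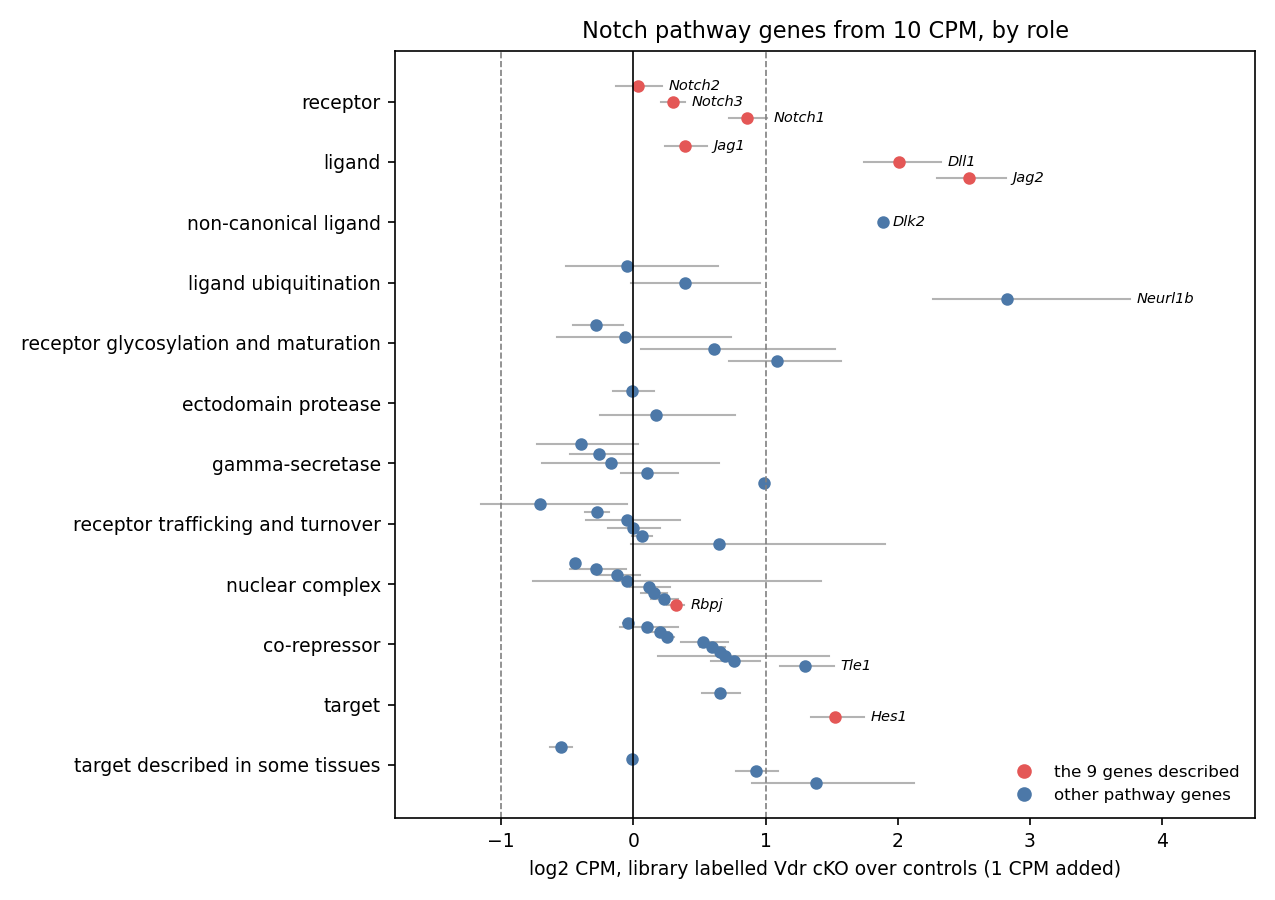
Log2 fold against the mean of the controls, in the library labelled *Vdr* cKO, for Notch pathway genes from 10 CPM, by role, with lines to the folds over each control and dashed lines at 2-fold. *Jag2*, *Dll1*, *Hes1*, *Dlk2*, *Neurl1b* and *Tle1* lie beyond 2-fold against both controls (*Neurl1b* at 2.83).

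To describe the members across keratinocyte markers, the cells of each library were ordered by the share of their counts from *Krt14* (basal), *Krt10* (spinous) or *Lor* (granular). Those with a count were split into 3 equal groups, low, middle and high. For *Krt14* the high group was set against the cells without a count, and for *Krt10* and *Lor* against the low group. The groups follow depth as well as type. The *Lor*-low cells of control 2 had a median of 13127 counts against 2728 and 3303 in its middle and high groups. *Krt10* did not order the libraries alike. From *Krt10*-low to *Krt10*-high cells, *Lor* went from 26775 to 5165 CPM, from 35215 to 3979 CPM and from 11230 to 12665 CPM. Basal markers of the *Krt10*-low cells summed to 1656, 1222 and 5810 CPM, so these cells are unlike across libraries. No member with at least 50 CPM in a compared group of every library (*Notch1* and *Hes1*) was over 2-fold apart the same way in all 3 libraries for any marker. Among all genes at this level, the shares were 4% higher and 1.32% lower with *Krt14*, 3.74% and 4.22% with *Krt10*, and 5.13% and 1.21% with *Lor*.

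In pooled CPM *Notch1* was lower in *Lor*-high than in *Lor*-low cells in all 3 libraries. From low to high *Lor* it had 62.3 and 34.4 CPM in control 1, 78.6 and 24.8 CPM in control 2 and 122 and 65.2 CPM with the *Vdr* cKO label, ratios of 0.559, 0.324 and 0.539. It was thus over 1.5-fold lower in every library, as were 7.41% of all genes. Across *Krt14* its order in pooled CPM differed. The *Krt14*-high cells had less *Notch1* than cells without *Krt14* in the controls (13.0 against 50.9 CPM and 40.6 against 53.3 CPM), while in the library labelled *Vdr* cKO the levels were 122 and 112 CPM with overlapping intervals. The thinned shares did not show this order. They were 2.05% in *Krt14*-high cells against 1.71% in cells without *Krt14* in control 1, 3.43% against 2.49% in control 2 and 9.27% against 6.94% in the third library, with intervals that overlapped in each.

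In pooled CPM *Hes1* was also lower in *Lor*-high than in *Lor*-low cells of every library, at ratios of 0.809, 0.734 and 0.538, with intervals that did not overlap. Its thinned share given above was higher in the *Lor*-high cells of control 1. In cells without *Krt14* and in *Krt14*-high cells it had 78.1 and 59.1, 86.2 and 65.4, and 246 and 223 CPM, with intervals that lay apart in the controls and overlapped in the third library. Its thinned shares in the controls were not lower in *Krt14*-high cells, at 3.53% without *Krt14* and 3.59% with the most in control 1, and 3.01% and 3.43% in control 2. Across *Krt10* it had 81.1, 40.3 and 69.2 CPM in the low, middle and high groups of control 1, 56.9, 129 and 73.9 CPM in control 2, and 212, 224 and 222 CPM in the third library. The controls thus differed from each other in the middle group, and the third library varied little across *Krt10*.

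The ligands had lower levels and less even patterns. In pooled CPM *Jag1* was lower in *Krt14*-high cells than in cells without *Krt14* in every library. The values were 3.79 against 30.3 CPM, 6.82 against 36.2 CPM and 27.9 against 38.4 CPM. Only 7 and 20 counts stood behind the high groups of the controls. Its thinned shares were 0.513% against 1.37%, 0% against 1.87% and 1.22% against 1.91%, with overlapping intervals. The share of all genes lower in every library by any amount was not computed. *Dll1* ran the other way in its point values, with 6.51 against 3.76 CPM, 11.2 against 1.66 CPM and 34.4 against 9.15 CPM. The CPM intervals of *Dll1* lay apart in control 2 and the library labelled *Vdr* cKO and overlapped in control 1. Its *Krt14*-high value in control 2 came from 33 counts in 2 cells. Thinned shares of *Dll1*, without *Krt14* and in *Krt14*-high cells, were 0.342% and 0% in control 1. They were 0% and 0.490% in control 2 and 1.04% and 1.82% in the third library, with intervals that overlapped in each. *Jag2* in the library labelled *Vdr* cKO was at 56.8, 33.9 and 16.9 CPM in the low, middle and high groups of *Krt10* and at 46.6 CPM in *Krt14*-high against 24.7 CPM in *Krt14*-free cells. From *Krt10*-low to *Krt10*-high cells its pooled CPM was lower in each library, at ratios of 0.832, 0.0584 and 0.310. The intervals overlapped in control 1. In the low and high groups *Jag2* was found in only 2 and 4 cells of control 1 and 7 and 3 cells of control 2. Its thinned shares, low then high, were 0.204% and 0.412%, 1.14% and 0%, and 4.71% and 1.41%, so control 1 ran the other way. Across *Krt14* the controls showed no shared order of *Jag2*, with a ratio of 0.542 in one and 9.09 in the other. *Rbpj* had *Krt14* ratios of 0.121, 0.706 and 2.32, *Notch2* 0.941, 0.443 and 1.03, and *Notch3* 0.342, 2.42 and 1.32, so none of the 3 had the same direction in every library.

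**Figure D4:**
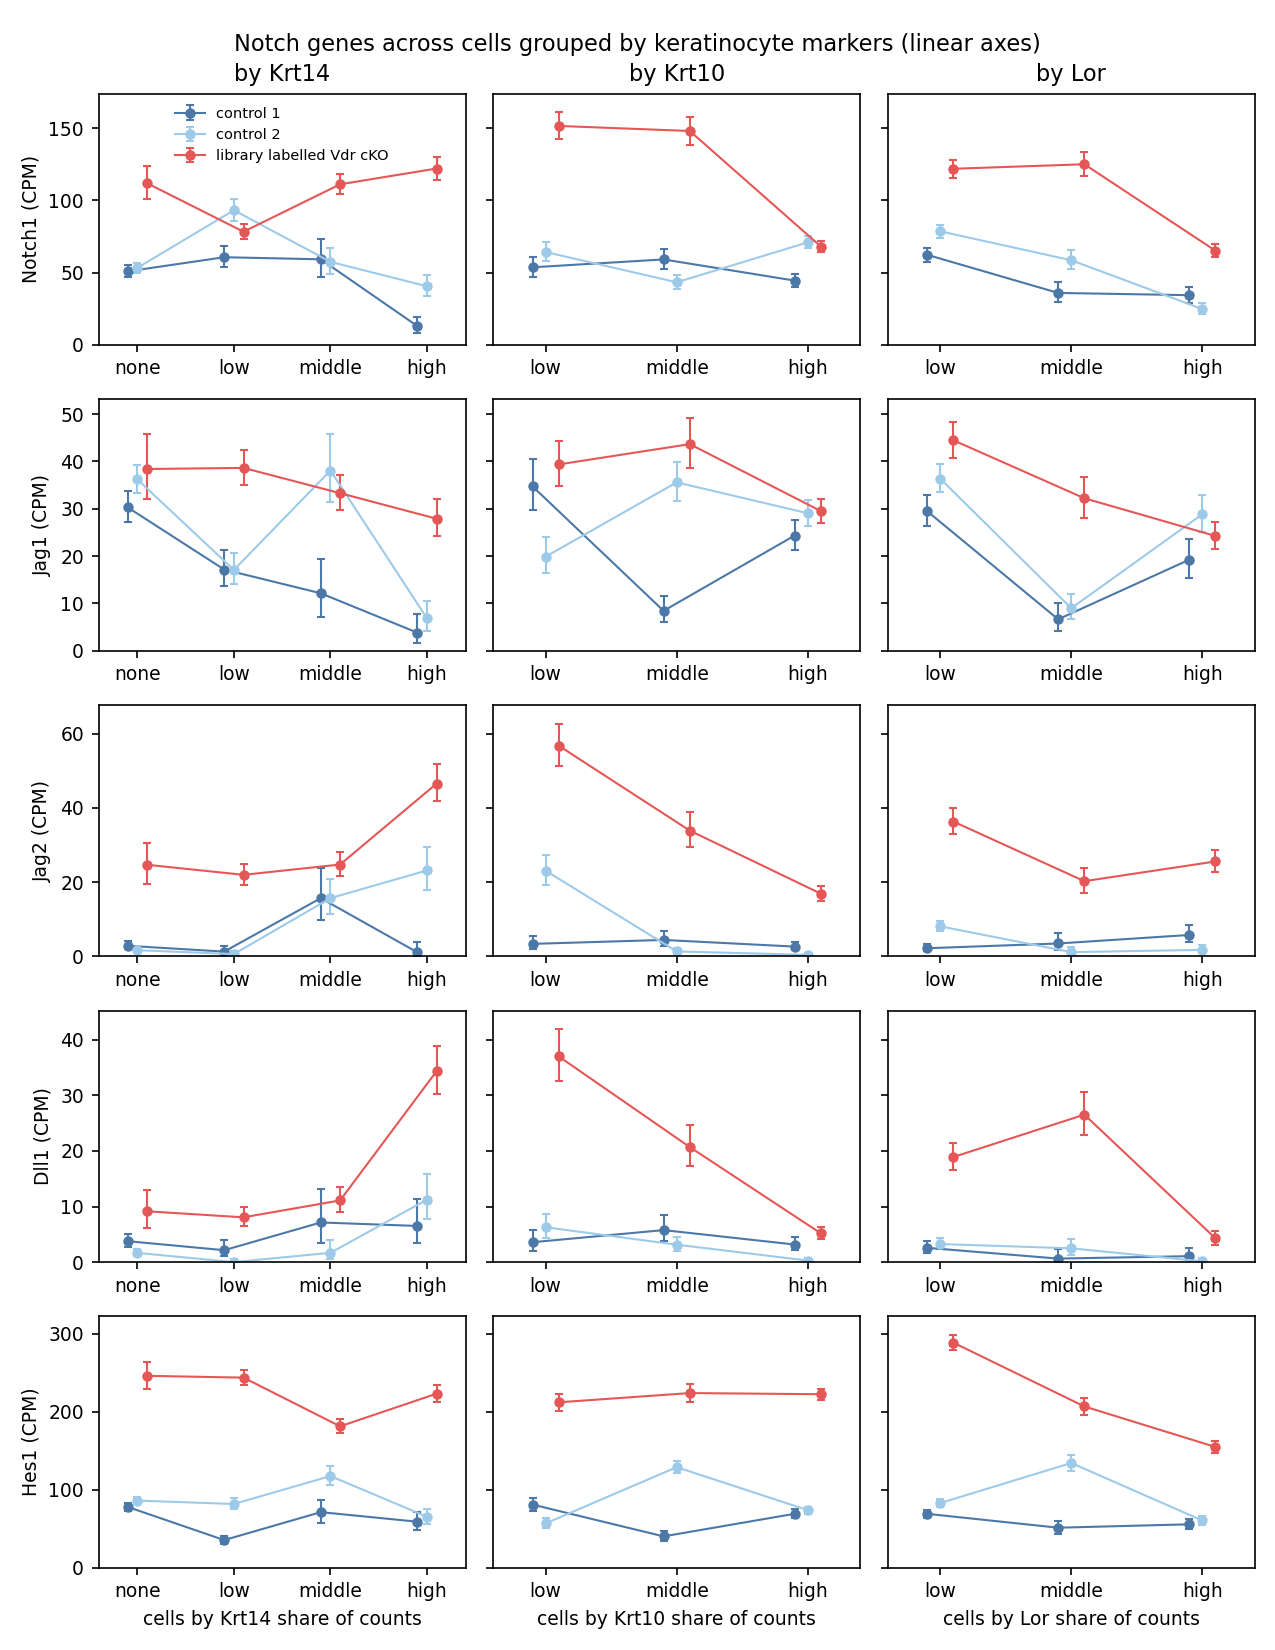
CPM of *Notch1*, *Jag1*, *Jag2*, *Dll1* and *Hes1* (rows) across cells grouped within each library by their share of *Krt14*, *Krt10* or *Lor* counts (columns), with 95% Poisson intervals and linear axes. *Hes1* is near 200 CPM or above in most groups of the library labelled *Vdr* cKO, between 155 and 289 CPM, and *Dll1* is highest in its *Krt10*-low and *Krt14*-high cells (37.0 and 34.4 CPM).

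The libraries were also compared within these 10 groups of cells (4 for *Krt14*, 3 each for *Krt10* and *Lor*), which share cells across markers. *Hes1*, *Jag2* and *Dll1* lay above both controls in 10 of 10 groups, as did 5.72% of all genes from 10 CPM. *Jag2* and *Dll1* are among those genes only through the library labelled *Vdr* cKO, so this share is set beside *Hes1* alone. The log2 fold ranged from 0.93 to 2.04 for *Hes1*, from 0.63 to 3.56 for *Jag2* and from 1.16 to 3.43 for *Dll1*. *Notch1* and *Jag1* lay above both controls in 8 groups, *Rbpj* in 7, *Notch3* in 4 and *Notch2* in 2. Below both controls were *Rbpj* in 2 groups and *Notch2* and *Notch3* in 1 each. The share of all genes with such counts was not computed, so nothing is read from them. In the *Krt14*-high groups the basal markers still summed to 2794, 2412 and 5475 CPM, and the *Krt10*-low groups differed as given above. The groups were thus not alike in make-up.

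**Figure D5:**
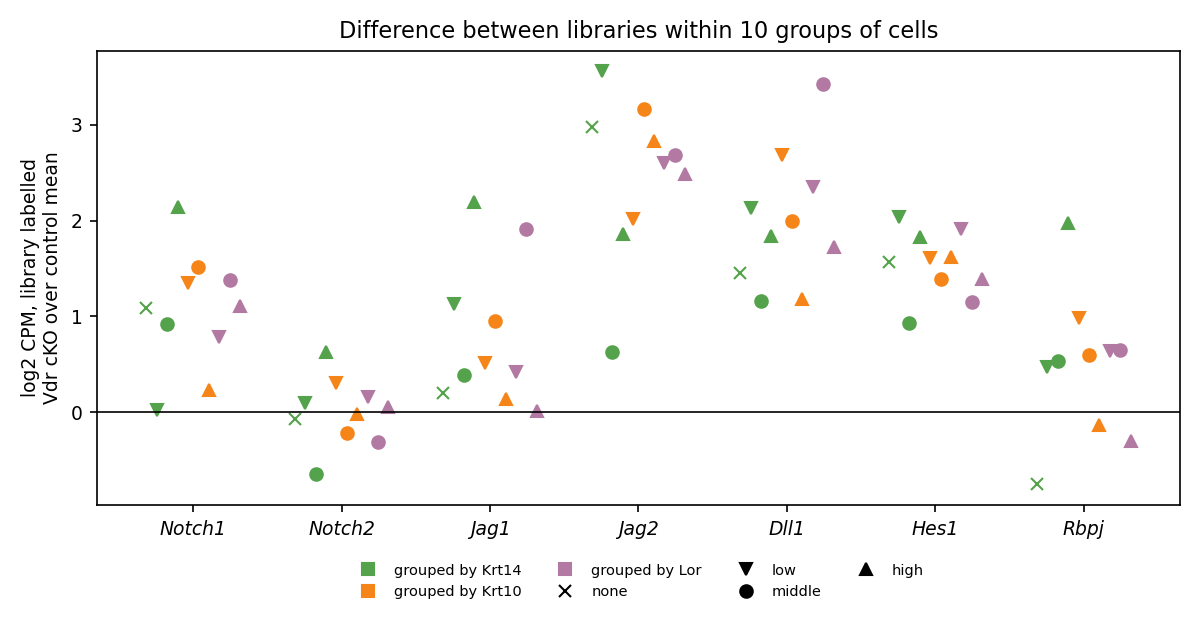
Log2 fold against the mean of the controls, in the library labelled *Vdr* cKO, for 7 members within 10 groups of cells, coloured by the marker that formed the groups and shaped by the group. Every point of *Jag2*, *Dll1* and *Hes1* is above 0 (lowest 0.63, 1.16 and 0.93), while *Notch2* scatters around 0.

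Cells with counts of at least 2 of the 5 basal markers numbered 168, 239 and 1423. They were deeper, with medians of 7841, 13127 and 5869 counts against 3989, 3801 and 2861 in the rest. The bulge and cycling sets below were deeper than the rest too, so such sets follow depth as well as type. *Hes1* had 68.4, 86.2 and 217 CPM in the basal set and 63.9, 86.4 and 234 CPM in the remaining cells of the same library. The library labelled *Vdr* cKO thus lay above both controls in the basal set and in the rest. Within a library the basal set and the rest were close. Nearly all cells of each library held at least 2 spinous markers, so such sets are not separate cell types. The granular split was less close. Cells with at least 2 granular markers had 53.2, 83.1 and 210 CPM of *Hes1*, against 122, 110 and 272 CPM in the rest. *Jag2* had 1.89, 5.23 and 30.8 CPM in the basal set and 3.77, 5.02 and 22.4 CPM in the rest. *Dll1* had 1.89, 6.69 and 14.1 CPM in the basal set and 4.66, 0.0523 and 19.9 CPM in the rest. Its point values across *Krt14* were thus not matched by this set in control 1 and the library labelled *Vdr* cKO. In control 1 the basal value of *Dll1* came from 10 counts in 1 cell. *Jag1* had 29.7, 18.9 and 36.3 CPM in the basal set and 20.5, 34.1 and 27.4 CPM in the rest. Its lower pooled CPM in *Krt14*-high cells was thus matched by the basal set in control 2 alone. Cells with 2 bulge markers numbered 53, 67 and 908, with 76.5, 101 and 223 CPM of *Hes1* against 63.9, 85.0 and 216 CPM in the rest. In the library labelled *Vdr* cKO, 151 cells held 2 cycling genes, and in these *Dll1* had 30.5 CPM against 13.2 CPM in the rest, from 118 counts in 19 cells, and *Notch1* had 58.6 against 108 CPM.

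For likeness of pattern, cells were divided by *Lor* and *Krt14* together into 27 groups over the 3 libraries, and log2 levels were centred within each library. Among 2748 genes, those most like *Notch1* were *Gata3*, a transcription factor of the inner root sheath and epidermis (r = 0.78), *Ptprf* (r = 0.76) and *Rpl3*, a ribosomal protein (r = 0.73). Those most like *Hes1* were *Kmt2c* (r = 0.74), *Cwf19l2* (r = 0.66) and *Serf2* (r = 0.66). These values describe groups that share libraries and differ in depth. They are the highest of 2748 correlations over only 27 groups, so no partner in pattern is read from them.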

How the data were processed

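The deposited files hold raw counts of genes by cell barcode, in 1 matrix for each of 3 single-cell libraries. The genome build is mm10 per the labels (the submitters' processing notes). The study credits its alignment to Seurat, which does not map reads. The read mapper, the annotation and any collapsing of repeated molecules are not given in the sources used here, so values may include PCR copies. Each count table was read by symbol, and a symbol that a library does not list was taken as 0. Gene positions come from GENCODE for GRCm38 (the same build as mm10) and promoter windows from RefSeq.

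A cell was a barcode that held 200 or more detected genes and no more than 20% mitochondrial counts. No doublet caller was used. Doublets were left in, and the 5% of cells with the most counts were removed as an alternative. Counts were summed over cells and scaled to CPM. A gene was called when it was over 2-fold, with 1 CPM added, above or below both controls, among genes from 50 CPM in at least 1 library. Groups by marker were called when over 2-fold the same way in all 3 libraries. Shares were taken after thinning each cell to 1000 counts. Cells are not replicates and there is 1 library labelled *Vdr* cKO, so no p-value was computed.

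Named are the 9 members, the pathway genes called (at most 3 of a role, here from 10 CPM), *Vdr*, *Krt14*, *Krt10* and *Lor*, and the 3 genes most like each member from 50 CPM, by Pearson's r of log2(CPM + 10) over groups of at least 20 cells. *Adam10*, *Adam17*, *Ncstn*, *Nrarp*, *Myc*, *Cdkn1a*, *Heyl*, *0610009E02Rik* and *Rbpj-ps3* were chosen after their values were seen. The members, lists and rules were chosen with earlier results of these data known. The procedures were tested on simulated data. The tools were Python 3.11.15 with numpy 2.4.6, scipy 1.17.1, pandas 2.3.3, matplotlib 3.10.9, and R 4.3.3 with edgeR 4.0.16 and DESeq2 1.42.0 for scaling factors only. Alternatives covered the limits for cells, shared and near-identical barcodes, scaling, level, fold, thinning, the split of cells and each library left out.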

Additional observations from a re-analysis of the deposited data

Results flagged for a closer look

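Barcodes left out as cells held Notch transcripts in the library labelled *Vdr* cKO. *Notch1* had 18 counts under them, 143 CPM of these barcodes, above the 51.7 and 58.0 CPM of the left-out barcodes of the controls. *Dll1* had 13 counts, 103 CPM, where the left-out barcodes of both controls had 0. These barcodes numbered 160 and held 126039 counts in all, against 1308 and 802 barcodes with 1141347 and 551524 counts in the controls. They were flagged because they lie outside the cells compared and exceed the controls. How many of the 160 barcodes held the 18 and 13 counts was not counted. Cells of this library with the gene held a mean of 5.78 *Notch1* and 5.23 *Dll1* counts, so few barcodes may lie behind them.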

How the results depend on the processing

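No paired analysis was possible because the control and *Vdr* cKO libraries share only replicate number 1 and no test was made. *Hes1* was over 2-fold above both controls under every alternative, with a log2 fold of 1.07 to 1.74. *Jag2* kept a log2 fold of 1.46 to 3.07 and *Dll1* of 0.96 to 2.56, the lowest with 10 CPM added, while *Notch1* ranged from 0.65 to 1.46, *Notch2* from -0.31 to 0.21, *Notch3* from 0.03 to 0.39, *Rbpj* from 0.11 to 0.53 and *Jag1* from -0.05 to 0.71. Counted once in a cell, *Notch3* lay between the controls (69.2, 76.9 and 75.2). Scaling by TMM or median-of-ratios factors moved the median log2 fold of all genes from 0.0017 to -0.19 and -0.22, and calls from 152 above and 45 below to 107 and 86, and 100 and 96.

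Members over 2-fold above both controls numbered 1 in the main setting. They numbered 2 when CPM was averaged over single cells (*Notch1* and *Hes1*), 2 with each gene counted once in a cell (*Jag2* and *Hes1*), 2 at 1.5-fold, 3 from 10 CPM, 3 with no filter, and 1 to 2 with a control left out (2 without control 2, with *Notch1*). Other pathway genes over 2-fold above numbered 0 in the main setting, 1 with each gene counted once, 3 at 1.5-fold, 3 from 10 CPM, 11 with no filter and 0 to 1 with a control left out (*Myc* without control 1). Among all genes, 4.04% were above with averaged CPM, 3.63% counted once, 9.21% at 1.5-fold, 7.97% from 10 CPM and 9.46% with no filter. With a control left out, 7.11% and 6.37% were above. In settings chosen after seeing the data, from 10 CPM, TMM gave 3 members and 2 other pathway genes, and counting once gave 3 and 6. Leaving out a control gave 3 to 4 members, 4 to 8 other genes above and 0 to 1 below. Of all genes, 5.82% were above with TMM, 8.08% counted once, 15.0% without control 1 and 16.0% without control 2. In pooled CPM, *Jag2* and *Dll1* passed 10 CPM only through the library labelled *Vdr* cKO. Nothing is read from these counts. *Notch1* was the 1 member lower with *Lor* at 1.5-fold, and 0 members were called for any marker under the other settings. Counts of a share above both controls were 6 to 8 of 9. The causes of these moves were not tested. *Jag2* was found in 11 and 12 control cells and *Dll1* in 9 and 7, which limits the precision of their folds.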

Other observations

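In cells thinned to 1000 counts, a count of at least 1 receptor (*Notch1*, *Notch2* or *Notch3*) was found in 5.32%, 6.01% and 11.5% of the cells (control 1, then control 2, then the library labelled *Vdr* cKO), and a count of at least 1 ligand (*Jag1*, *Jag2* or *Dll1*) in 1.98%, 2.38% and 5.85%. Both were found under the same barcode in 1, 4 and 26 cells, or 0.068% (interval 0.0017 to 0.379), 0.250% (0.0683 to 0.640) and 1.01% (0.664 to 1.48). If the detections were independent, the shares would be 0.105%, 0.143% and 0.674%. In the controls these lie within the intervals, and in the library labelled *Vdr* cKO 0.674% lies just inside the lower bound. Doublets remain among the cells.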
